A study of Mus musculus with 2 samples.

Results

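The enzymes that break down glucose were followed in mouse T cells that had or had not met retinal pigment epithelium (RPE), the pigmented layer behind the retina, which restrains T-cell responses in the eye. The genes were 38 enzymes and transporters of glucose uptake, glycolysis, the pentose phosphate pathway and the tricarboxylic acid (TCA) cycle, taken by gene name. A gene was measured through its probe sets, groups of short probes on a 1-colour Affymetrix array, and only probe sets annotated to exactly 1 gene were used. Of the 38 genes, 35 had such a probe set, 84 in all, out of 18194 genes named on the array. Gpi1, Eno1 and G6pdx have no signal here, since no probe set was listed under their symbols.

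The control array was labelled as mouse CD4 T cells and the other array as mouse T cells after RPE exposure. Both samples came from male mice of C57 BL/6 background, 6 weeks old. For the exposed sample the tissue label named primary cultured RPE, while its title and source named T cells. How the T cells were stimulated, how long they were with the RPE, and whether animals were pooled were not stated in the labels. The study's title concerns the suppression of T-helper 17 cells by RPE. There was 1 array per group, so no difference could be tested against a spread between samples, no p-value is given, and precision is limited by the number of arrays.

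Glycolysis splits glucose into pyruvate in the cytosol and passes its carbon either to lactate, through lactate dehydrogenase, or to the mitochondria, through pyruvate dehydrogenase. The pentose phosphate pathway branches off at glucose-6-phosphate and supplies NADPH and ribose. The TCA cycle oxidises acetyl groups in the mitochondria. Activated T cells are known for a high rate of glycolysis to lactate, which is driven in part by the transcription factors MYC and HIF-1.

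Signals are linear intensities on a scale that the arrays already shared. The median signal of an array, 15.9 for the control and 16 for the exposed one, served as the floor, and signals at or under it were raised to it. A gene under the floor on both arrays was not compared. Where only 1 array passed, the difference was taken from the floor. Of the 11022 genes compared, 9994 were above the floor on both arrays. All 35 genes passed the floor on both arrays through at least 1 probe set, as did 79 of the 84 probe sets. A gene is given by its brightest probe set unless stated, and differences are log2 values, exposed minus control. The SD over the probe sets of a gene describes disagreement between probe sets within this pair of arrays. Probe sets are not replicates of cells or animals. Pooled over the 21 genes with several probe sets above the floor, that SD was 0.16.

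The summed signal of 11 T-cell genes was 15261 in the control and 16485 in the exposed sample, and all 11 were above the floor on both arrays. Of these 5 were positive and 6 negative. Cd4 itself gave 287.0 and 271.1 (-0.08), with another probe set at 0.60. B-cell genes summed to 2233 and 1469 over 11 genes, 10 of them above the floor on both arrays. Of these 10, 9 were negative, and by at least 0.32, 7 were lower (70.0%) and 0 higher. Over all genes compared 12.7% were lower and 10.9% higher by that size. Macrophage and dendritic-cell genes summed to 3054 and 2147 over 14 genes, with 10 and 12 above the floor. Most of that sum came from the MHC class II genes H2-Aa (1438 and 1081), H2-Ab1 (481.7 and 312.8) and H2-Eb1 (707.7 and 457.1), which B cells also express. The list leaned lower in exposed cells. Its 13 genes with a log2 difference, those MHC genes included, were 9 negative and 4 positive. Only 9 of the 13 were above the floor on both arrays. The differences of Lyz1 (negative) and of Adgre1, Fcgr1 and Mrc1 (positive) had 1 array set at the floor. By at least 0.32, 8 of them were lower (61.5%) and 0 higher. Cd86 fell from 200.9 to 105.3. Markers nearer to macrophages were dim. Cd68 (44.4 and 30.6), Lyz2 (29.4 and 19.5) and Cd14 (21.7 and 16.1) were lower. Csf1r gave 29.1 and 31.4, and Mrc1, under the floor in control cells, 7.2 and 19.8. The 16 RPE genes summed to 112.6 and 108.4, with 13 above the floor on neither array, Rpe65 among them at 5.3 and 2.3, and none on both. None of 3 red-cell genes was above it, at sums of 3.2 and 16.4. In such bulk samples fewer cells of a type and less RNA per cell cannot be told apart. What part these other cells had in the differences below was not tested.

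Transcripts for glucose breakdown differed little between control and RPE-exposed T cells. No gene of the 35 was 2-fold higher or lower, where 0.435% of the 11022 genes compared on the array were 2-fold higher and 0.626% 2-fold lower. At shares this small, a set of 35 genes says little at that size. The extremes were Idh1, cytosolic isocitrate dehydrogenase, at 0.50, and Pfkfb3, which makes the activator of phosphofructokinase, at -0.39. With a smaller size, a log2 difference of at least 0.32, Idh1 and Rpe were higher and Pfkfb3 and Idh2 lower, which is 5.71% of the 35 in each direction. Over all genes compared 10.9% were higher and 12.7% lower by that size. Among the 21 genes with a mean signal of 500 or more none reached it, where 3.98% of the 1934 genes at such levels were higher by that size and 3.15% lower. Among the 12 genes with a mean signal of 100 to 500, 2 were lower by that size (16.7%) and 1 higher (8.33%). Over all genes of that class 8.75% were lower and 7.09% higher. All 35 differences lay inside the central 95% of differences of genes of like level, the 551 or 552 genes in the same twentieth by mean signal.

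The median difference was -0.04 over the 35 genes and -0.01 over all genes compared. By pathway it was 0.08 for 15 glycolytic genes, 0.00 for 6 pentose phosphate genes, -0.11 for 9 TCA genes and -0.06 for 3 transporters. The difference was positive in 8 of 15 glycolytic genes and negative in 7 of 9 TCA genes, and these counts were the same after median centring and after quantile normalization of the arrays. Over all genes compared 48.2% were positive.

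**Figure D1:**
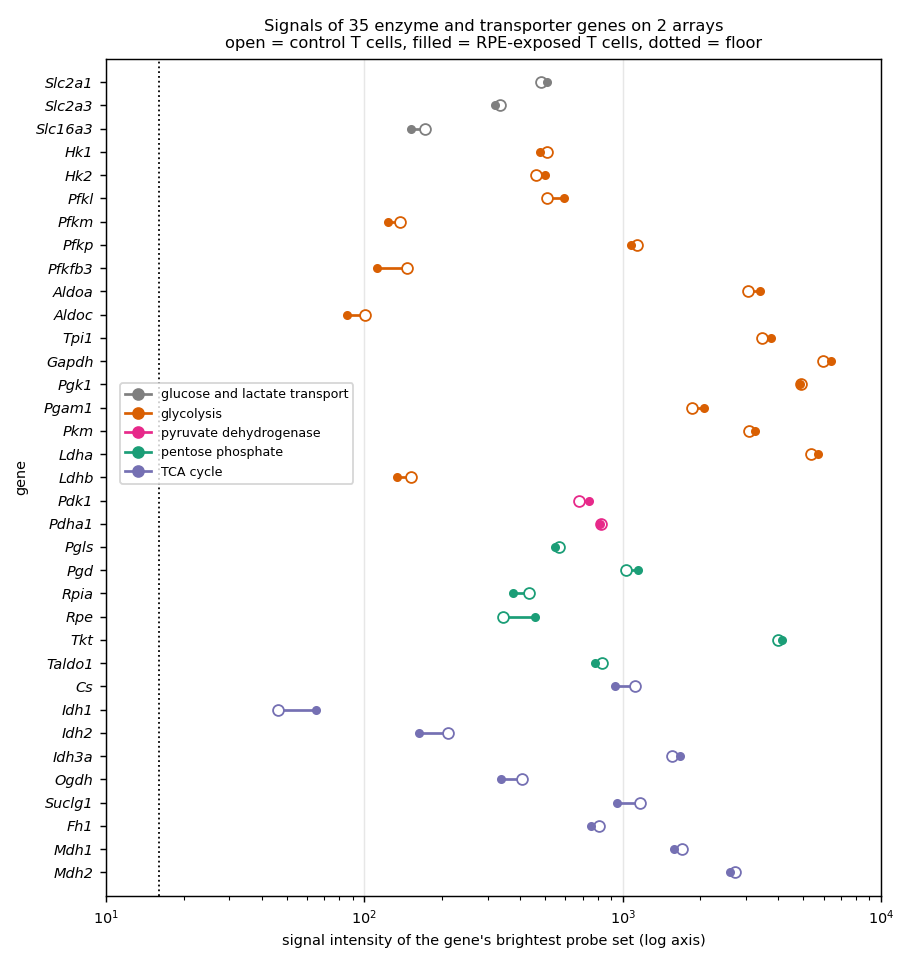
Signal intensity of each gene's brightest probe set (log axis) in control T cells (open circles) and RPE-exposed T cells (filled circles), 1 array each, coloured by pathway, with the floor dotted. The paired circles lie close together in all 35 genes, as for Gapdh at 5992 and 6411, and stand farthest apart in Idh1 at 46.1 and 65.1.

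**Figure D2:**
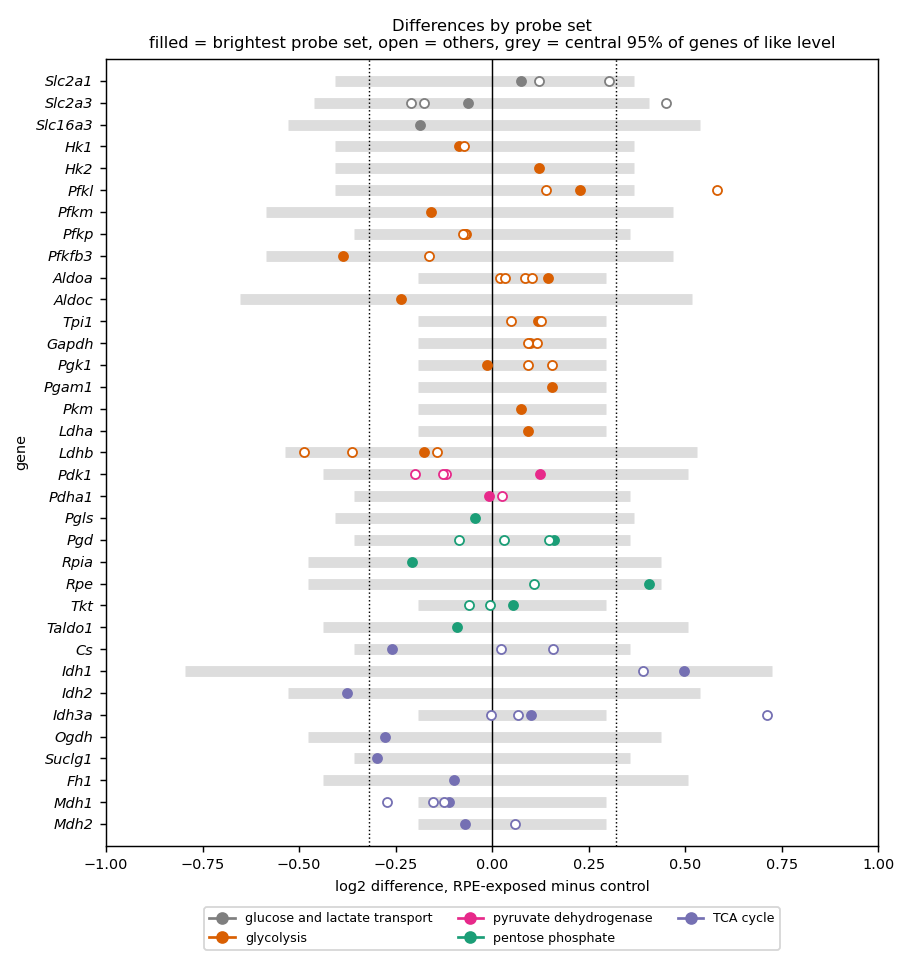
Log2 difference, exposed minus control, for every probe set above the floor on both arrays, filled for the brightest of each gene and open for the others. Grey bars give the central 95% of genes at the level of each gene's brightest probe set, and dotted lines mark 0.32 in each direction. The filled circles all lie on their grey bars. To the right of the bar lies 1 open circle each of Pfkl, Slc2a3 and Idh3a, and to the left 1 of Mdh1. Each of these is its gene's dimmest probe set above the floor on both arrays, so the bar is not the range for its own level.

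Glucose enters T cells mainly through the transporters GLUT1 and GLUT3. Slc2a1, which encodes GLUT1, gave 482.4 in control and 507.7 in exposed cells, a difference of 0.07, and its 3 probe sets were all positive at 0.17 ± 0.12 (SD). Slc2a3, which encodes GLUT3, gave 333.7 and 319.4, a difference of -0.06. Of its 4 probe sets 3 were negative and the dimmest, at 16.6 and 22.7, was positive at 0.45, so that their mean was 0.00 ± 0.31 (SD). Slc16a3, the lactate exporter MCT4, gave 172.1 and 151.1, a difference of -0.19 from a single probe set. The GLUT1 transcript was thus marginally brighter after exposure and those of GLUT3 and MCT4 marginally dimmer.

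Hexokinase traps glucose in the cell as glucose-6-phosphate. Hk2, the inducible form, gave 460.6 and 501.0, a difference of 0.12 from a single probe set. Hk1, the constitutive form, gave 508.6 and 479.5, a difference of -0.09, and both of its probe sets were negative at -0.08 ± 0.01 (SD). The hexokinase transcripts therefore differed in opposite directions, each by less than the pooled SD over probe sets.

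Phosphofructokinase commits sugar to glycolysis, and its subunits come from 3 genes. The liver-type subunit Pfkl was 1.17-fold higher after exposure, at 508.3 and 594.8, and its 3 probe sets were all positive at 0.32 ± 0.23 (SD). Its dimmest probe set gave 27.4 and 41.0. The platelet-type subunit Pfkp gave 1133 and 1081, and its 3 probe sets were alike at -0.07 ± 0.0031 (SD). The muscle-type subunit Pfkm gave 137.3 and 122.9, a difference of -0.16. Pfkfb3 was 1.31-fold lower, at 146.0 and 111.6, and its other probe set, at 44.5 and 39.7, gave -0.16. Among genes of like level, 8.5% had a lower difference than Pfkfb3, and 88.6% a lower difference than Pfkl. In this step 1 subunit gene was brighter in exposed cells, while the other subunits and the regulator were dimmer.

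Most enzymes of the lower pathway gave slightly brighter signals in exposed cells. Aldoa, the main aldolase, gave 3067 and 3391, and its 5 probe sets were all positive at 0.08 ± 0.05 (SD). Aldoc, the brain-type aldolase, gave 100.8 and 85.6, a difference of -0.24, and its other probe set was under the floor on both arrays. Tpi1, triose phosphate isomerase, gave 3457 and 3751, with 3 positive probe sets at 0.10 ± 0.04 (SD).

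Gapdh, the dehydrogenase of the pathway and a common reference gene, was measured by the manufacturer's 3 control probe sets, along the 5′, middle and 3′ parts of its transcript. The 5′ probe set gave 5992 and 6411, the middle 5400 and 5854, and the 3′ probe set 4801 and 5121. Their differences were alike, at 0.10 ± 0.01 (SD), so the exposed array was brighter by about the same amount along the transcript.

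Pgk1, phosphoglycerate kinase, gave 4924 and 4878 in its brightest probe set (-0.01) and positive differences of 0.15 and 0.09 in the others, a mean of 0.08 ± 0.08 (SD). Pgam1, phosphoglycerate mutase, gave 1860 and 2071, a difference of 0.15. Pkm, pyruvate kinase, gave 3076 and 3241, a difference of 0.08. All 5 Aldoa probe sets, and some of Tpi1 and Pgk1, carry the x suffix for probes that can match other sequences. Signal from related sequences cannot be separated in them.

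Lactate dehydrogenase turns pyruvate into lactate, with an A subunit favoured by glycolytic cells and a B subunit favoured by oxidative ones. Ldha gave 5369 in control and 5731 in exposed cells, a difference of 0.09 from a single probe set. Ldhb gave 151.3 and 133.9, a difference of -0.18. All 4 Ldhb probe sets were negative, with values from -0.14 to -0.49 and a mean of -0.29 ± 0.16 (SD). The A subunit was slightly brighter and the B subunit dimmer after exposure.

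Brightness itself went with the direction of these differences. Of the 8 genes with a mean signal of 2000 or more, 6 were positive with a median of 0.08, these being Aldoa, Tpi1, Gapdh, Pkm, Ldha and Tkt. Among all 292 genes that bright, 72.6% were positive and the median was 0.05. Quantile normalization, which gives both arrays the same distribution of signals, brought all genes that bright to a median of 0.00 with 51.0% positive. The 8 genes of glucose breakdown in that class then had a median of 0.03 with 6 positive. At mean signals of 500 to 2000, before that normalization, 8 of 13 genes were negative with a median of -0.04. All 1642 genes of that class had a median of 0.02 and 56.5% were positive. At mean signals of 100 to 500, 9 of 12 genes were negative with a median of -0.17, where all 4401 genes of that class had a median of -0.02 and 46.3% were positive. These 9 were Slc2a3, Slc16a3, Hk1, Pfkm, Pfkfb3, Ldhb, Rpia, Idh2 and Ogdh.

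**Figure D3:**
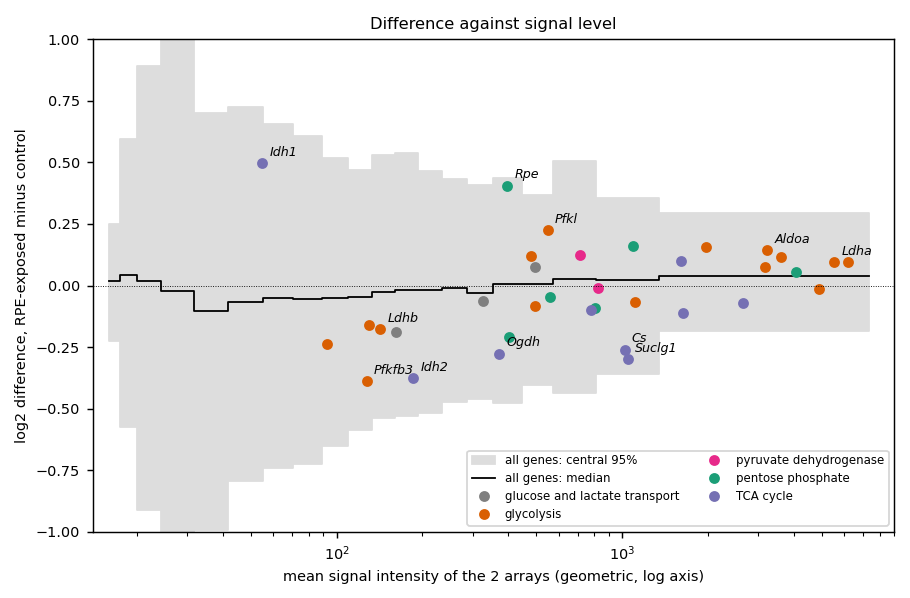
Log2 difference, exposed minus control, against the mean signal of both arrays (log axis) for the 35 genes, over the median (line) and central 95% (grey) of all genes compared, in 20 bins of level. The bright glycolytic genes Aldoa and Ldha lie just over the line of all genes, and all 35 points lie within the grey band.

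In 5 pairs of transporters or isoenzymes, picked after the values were seen, the partners leaned in opposite directions. Differences were 0.07 for Slc2a1 and -0.06 for Slc2a3, 0.12 for Hk2 and -0.09 for Hk1, 0.23 for Pfkl and -0.16 for Pfkm, 0.14 for Aldoa and -0.24 for Aldoc, and 0.09 for Ldha and -0.18 for Ldhb. The gap between the partners was 0.14, 0.21, 0.39, 0.38 and 0.27 in that order. Apart from Slc2a3, whose sign turned positive with all probe sets averaged or with the dimmest taken, these genes kept their sign under every processing alternative that gave them a value. For Hk2, Pfkm, Aldoc and Ldha, with 1 probe set above the floor each, the choice of probe set could not change the sign. The pattern was not general, since both malate dehydrogenases were negative in their brightest probe sets.

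Promoters of 3 of these pairs are shown because HIF-1 binds sites with the core ACGTG and MYC binds CACGTG, which contains that core on both strands. The windows are the 250 bases before an annotated start in the RefSeq table for GRCm38.p6, written 5′ to 3′ along the gene, with each ACGTG core on either strand (ACGTG or CACGT) in capitals. They were chosen after the differences had been seen. Where a gene has several starts, the window with the most cores is shown, or the first listed in a tie. The Ldha window lies at chr7:46845554-46845803 on the plus strand, Ldhb at chr6:142507958-142508207 on the minus strand, Hk2 at chr6:82774455-82774704 on the minus strand, Hk1 at chr10:62379909-62380158 on the minus strand, Pfkl at chr10:78009808-78010057 on the minus strand and Pfkm at chr15:98092339-98092588 on the plus strand.
Ldha: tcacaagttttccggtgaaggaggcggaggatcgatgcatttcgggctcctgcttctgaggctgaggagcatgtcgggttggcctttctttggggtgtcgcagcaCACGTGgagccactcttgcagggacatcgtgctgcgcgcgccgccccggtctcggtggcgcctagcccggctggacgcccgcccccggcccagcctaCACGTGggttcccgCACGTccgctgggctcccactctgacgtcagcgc
Ldhb: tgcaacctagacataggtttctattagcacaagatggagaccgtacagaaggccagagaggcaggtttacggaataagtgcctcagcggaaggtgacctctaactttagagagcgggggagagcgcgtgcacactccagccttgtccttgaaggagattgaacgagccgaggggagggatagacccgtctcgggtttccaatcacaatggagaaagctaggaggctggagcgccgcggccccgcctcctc
Hk2: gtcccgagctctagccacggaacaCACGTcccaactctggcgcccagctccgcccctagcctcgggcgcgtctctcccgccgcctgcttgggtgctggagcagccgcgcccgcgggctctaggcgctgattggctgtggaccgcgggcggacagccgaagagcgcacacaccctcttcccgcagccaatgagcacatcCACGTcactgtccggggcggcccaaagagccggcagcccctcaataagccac
Hk1: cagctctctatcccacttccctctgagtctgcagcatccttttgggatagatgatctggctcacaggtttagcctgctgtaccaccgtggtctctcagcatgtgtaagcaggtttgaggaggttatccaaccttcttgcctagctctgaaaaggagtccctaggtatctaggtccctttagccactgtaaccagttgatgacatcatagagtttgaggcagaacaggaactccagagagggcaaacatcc
Pfkl: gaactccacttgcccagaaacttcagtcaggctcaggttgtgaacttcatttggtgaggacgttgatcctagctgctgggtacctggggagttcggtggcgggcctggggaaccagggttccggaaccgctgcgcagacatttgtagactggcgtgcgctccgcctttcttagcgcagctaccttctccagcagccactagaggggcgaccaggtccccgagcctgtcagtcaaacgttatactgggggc
Pfkm: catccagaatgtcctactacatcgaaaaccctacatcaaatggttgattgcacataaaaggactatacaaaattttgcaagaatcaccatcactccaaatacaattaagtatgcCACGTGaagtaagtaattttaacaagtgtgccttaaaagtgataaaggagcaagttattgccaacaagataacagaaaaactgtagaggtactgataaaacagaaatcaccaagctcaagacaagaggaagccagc

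The Ldha window holds the ACGTG core in 3 places, 2 of them CACGTG, and Hk2 in 2 places, while Ldhb and Hk1 hold no ACGTG. Pfkl holds no ACGTG and Pfkm holds it in 1 place. Of the aldolase genes, not printed, Aldoa holds it once in 2 of its 3 windows and Aldoc in neither of 2. Whether the core bears on the differences was not tested. The core was present in at least 1 window of 12 of the 36 genes with a promoter in the table, or 33.3%, against 18.5% of all 27025 genes there. The 36 genes, and the pathway counts below, include Gpi1, Eno1 and G6pdx, which have no signal here and hold no core. By window the core was present in 35.7% of 56 windows against 16.6% of 32851, and 6.02% of all windows held CACGTG. Windows of a gene can overlap and share a core, as several of Ogdh and those of Aldoa with the core did, so windows are not separate counts. The 12 genes were 8 of 17 glycolytic genes, both transporters with a window, 2 of 8 TCA genes (Ogdh and Mdh1) and none of 7 pentose phosphate genes. In their brightest probe sets Slc2a1, Hk2, Aldoa, Pgam1, Pkm and Ldha were positive, and Slc16a3, Pfkm, Pfkfb3, Pgk1, Ogdh and Mdh1 negative. A match is a description of letters, no match says only that these letters are not in this window, and the array does not tell which start was used.

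Pyruvate dehydrogenase carries pyruvate into the mitochondria, and its kinase Pdk1 holds it off. Pdha1, the catalytic subunit, gave 823.6 and 818.6, a difference of -0.01, with a second probe set at 0.02. Pdk1 gave 680.5 and 741.7 (0.12) in its brightest probe set but -0.12, -0.20 and -0.13 in the other 3, a mean of -0.08 ± 0.14 (SD). The sign of Pdk1 thus depended on the probe set, and Pdha1 was almost equal on both arrays.

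Of the pentose phosphate enzymes, the oxidative arm was represented by Pgls and Pgd. Pgls, the lactonase, gave 566.5 and 549.2, a difference of -0.04. Pgd, which makes NADPH and ribulose-5-phosphate, gave 1030 and 1151 (0.16), and its 4 probe sets averaged 0.06 ± 0.12 (SD) with 1 of them negative.

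Rpe, the epimerase that feeds ribulose-5-phosphate into the non-oxidative arm, had the highest difference of this pathway. It was 1.33-fold higher after exposure, at 344.0 and 455.9 (0.41), while its second probe set, at 217.8 and 234.8, gave 0.11 and another was under the floor on both arrays. Of genes of like level 96.7% had a lower difference than Rpe. The gene symbol is unrelated to the retinal pigment epithelium. Rpia, the isomerase at the same branch point, gave 433.1 and 375.0, a difference of -0.21. The epimerase and isomerase, which act on the same substrate, therefore leaned in opposite directions.

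Tkt, transketolase, gave 3989 and 4143 (0.05), with the other probe sets at -0.06 and -0.01, and Taldo1, transaldolase, gave 831.7 and 780.8, a difference of -0.09. Of the 6 genes of this pathway 3 were positive and 3 negative.

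TCA-cycle transcripts leaned lower in their brightest probe sets, with 7 of 9 negative. Suclg1, a subunit of succinyl-CoA synthetase, was 1.23-fold lower in exposed cells, at 1166 and 947.3 (-0.30), and 4.5% of genes of like level lay lower. Ogdh, of the oxoglutarate dehydrogenase complex, was 1.21-fold lower, at 408.0 and 336.7 (-0.28). Idh2, mitochondrial NADP-dependent isocitrate dehydrogenase, was 1.30-fold lower, at 211.5 and 163.1 (-0.37). These 3 genes rested on 1 probe set above the floor on both arrays each. A second Ogdh probe set, above the floor in exposed cells only at 15.1 and 18.4, had the opposite direction.

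Mdh1, cytosolic malate dehydrogenase, gave 1703 and 1575, and all 4 of its probe sets above the floor were negative at -0.17 ± 0.07 (SD). Its mitochondrial counterpart Mdh2 gave 2725 and 2593 (-0.07) in the brightest probe set and 0.06 in the other. Fh1, fumarase, gave 808.4 and 755.0, a difference of -0.10. The malate dehydrogenase signal was lower in every Mdh1 probe set above the floor, whereas that of Mdh2 was split.

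Cs, citrate synthase, gave 1118 and 933.3 (-0.26) in its brightest probe set but 0.02 and 0.16 in the others, a mean of -0.03 ± 0.21 (SD). Idh3a, a subunit of the NAD-dependent isocitrate dehydrogenase, gave 1551 and 1662 (0.10), and a dim probe set at 25.6 and 41.9 gave 0.71. Idh1 was 1.41-fold higher, at 46.1 and 65.1 (0.50), with its other probe set at 39.8 and 52.2 (0.39), and so the cytosolic enzyme leaned opposite to its mitochondrial relative Idh2. Idh1 lay in the class of mean signals under 100, and 92.9% of genes of like level had a lower difference.

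How far the TCA genes leaned lower depended on the probe set taken. With all probe sets above the floor averaged, the count stayed at 7 of 9 negative but the median was -0.03. With the dimmest probe set of each gene, 5 of 9 were negative. With probe sets of the suffixes x, s and a left out, all 5 TCA genes with a value were negative, at a median of -0.26. Of these, Idh3a was almost equal on both arrays at -0.0021, and Idh1, positive in both of its probe sets, had no value. Of the 21 genes with several probe sets above the floor, 12 had all of them on the same side of 0.

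Other genes of the same pathways, from lists of pathway members and regulators, were described by the same counts, to be read against the 10.9% of all genes that were higher and the 12.7% that were lower by at least 0.32. Of the other glycolysis and transport genes 14 of 24 were above the floor on at least 1 array, with a median of -0.13, 2 higher by at least 0.32 (14.3%) and 4 lower (28.6%). Where both arrays passed the floor, the largest differences were those of the transporter gene Slc2a6 (70.6 and 45.9, -0.62), the hexokinase gene Hk3 (28.9 and 19.2, -0.59, with another probe set at 0.21) and the muscle-type enolase gene Eno3 (454.4 and 327.5, -0.47). Pklr, the liver-type pyruvate kinase gene, was above the floor in exposed cells only, at 11.5 and 24.1, and is named after its values were seen. It is counted among the 2 higher genes, at 0.60 taken from the floor.

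Pyruvate entry genes had a median of 0.05 over 10 genes, with 1 higher and 1 lower by at least 0.32. The pyruvate dehydrogenase phosphatases Pdp1 (36.4 and 52.8, 0.54, with another probe set at -0.36) and Pdp2 (61.4 and 46.4, -0.40) leaned apart, and Pdhx of the same complex gave 125.3 and 100.5 (-0.32, just short of that size). Other pentose phosphate genes had a median of 0.03 over 5 genes, from Prps2 (-0.08) to H6pd (0.23) and Rbks (80.9 and 103.5, 0.36).

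Over 20 other TCA and linked genes the median was 0.03, with 11 positive and 9 negative, 1 higher and 1 lower by at least 0.32. Me1, cytosolic malic enzyme, which makes NADPH from malate, was 2.28-fold higher after exposure at the dim signals of 16.6 and 37.8, just over the floor in control cells (0.72 with an offset of 16 added to the signals). Pck2, mitochondrial PEP carboxykinase, gave 114.1 and 86.5 (-0.40). Idh3b, a subunit partner of Idh3a, gave 882.6 and 1083 (0.30, with another probe set at 0.10). With probe sets of the suffixes x, s and a left out, Idh3b was at -0.04.

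Among 25 regulators above the floor the median was -0.09, with 9 positive and 16 negative, and 1 higher (4.0%) and 6 lower (24.0%) by at least 0.32. Myc was 1.47-fold lower, at 1112 and 754.9 (-0.56), and Esrra, a nuclear receptor that drives mitochondrial genes, gave 93.7 and 67.2, with both probe sets at -0.47 ± 0.02 (SD). Epas1, which encodes HIF-2 alpha, gave 80.0 and 110.6 (0.47). Hif1a gave 4068 and 4080 (0.00) in its brightest probe set and -0.09 ± 0.12 (SD) over its 4. Txnip, an inhibitor of glucose uptake, gave 492.3 and 525.8 (0.10, with another probe set at 0.35). Over 18 hypoxia targets the median was 0.07, with Bnip3, a mitophagy receptor, at 387.5 and 501.4 (0.37), and the oxygen sensors Egln3 at 413.9 and 306.6 (-0.43, with another probe set at -1.11) and Egln1 at 246.3 and 203.4 (-0.28, with another probe set at 0.31). This list shares Slc2a1, Pdk1 and Ldha with the 38 genes and Mxi1, Egln1 and Egln3 with the regulators. The Myc transcript, read by 1 probe set above the floor on both arrays, was dimmer in exposed cells. The summed B-cell genes were also lower in that sample, and any link between these differences was not tested.

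**Figure D4:**
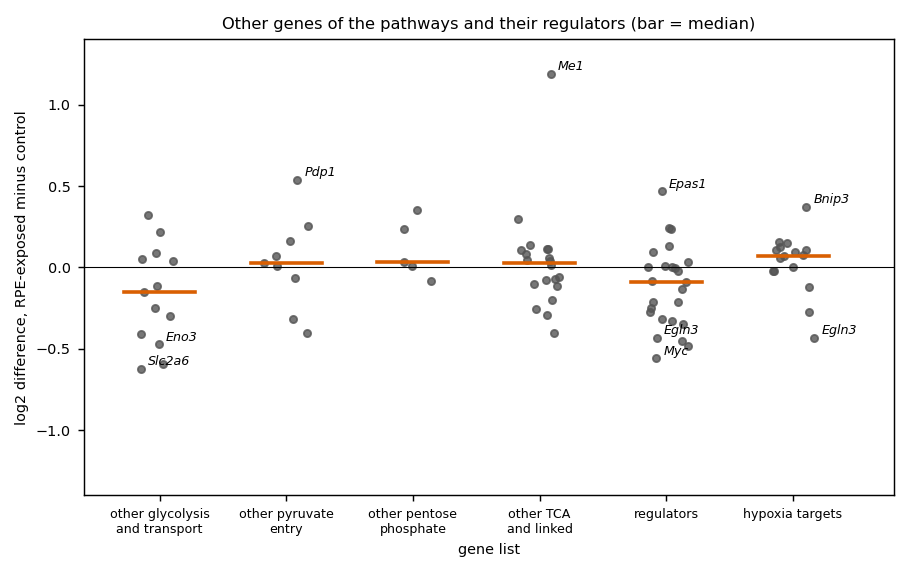
Log2 difference, exposed minus control, of other pathway genes, regulators and hypoxia targets above the floor on both arrays, 1 point per gene, with the list's median over those genes as a bar. Most points lie near 0, with Me1 at 1.19 the highest and Slc2a6 at -0.62 the lowest.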

How the data were processed

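Labelled cRNA from control and RPE-exposed mouse T cells was hybridised to 1 Affymetrix array each, per the labels' protocols. The deposited values are linear signal intensities, 1 per probe set and array. No label or header names the summarization software. With 2% of the 45101 probe sets trimmed at each end, both arrays averaged 99.97, so no scaling was added.

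Gene symbols came from the platform annotation (34958 probe sets with 1 gene, 932 with several, 9211 unlisted). The manufacturer's control probe sets were kept where they named 1 gene, as for Gapdh, and left out of the floor. Log2 differences, floors, counts by size and levels in 20 bins were computed in numpy 2.4.6 and pandas 2.3.3 under Python 3.11.15, checked on a simulated pair of arrays, and plotted with matplotlib 3.10.9. The difference of 0.32 is the rounded log2 of the size used for counting. Every one of the 38 genes is named. Of each other pathway list the 3 largest differences above the floor on both arrays are named, with Hif1a, Myc and Txnip.

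The members and lists were chosen with earlier results of these data known. Alternatives covered the floor, an offset, the scaling and the probe set per gene. Promoter windows were read from RefSeq, with 36 of 38 genes matched. No test was possible with 1 array per group.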

Additional observations from a re-analysis of the deposited data

How the results depend on the processing

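Of the 35 genes, 26 kept their sign under each of 9 alternatives that gave them a value, and none reached 2-fold under any. A gene with only 1 probe set above the floor could not change sign with the probe set taken. The 9 genes that changed were all among the 21 with several probe sets above the floor. Pdha1 alone changed sign with the scaling (median centring); Slc2a3, Pgk1, Pdk1, Pgd, Tkt, Cs, Idh3a and Mdh2 changed with the probe set. The medians given here differed by more than the SD over probe sets divided by the square root of the number of genes. The floor at the 75th percentile gave a TCA median of -0.19, 1 gene higher by 0.32 or more, and a median of -0.20 for the other glycolysis genes, which was -0.057 with the floor at the 25th percentile. Quantile normalization gave a glycolysis median of 0.023. Averaged probe sets gave medians of -0.0066 over the 35 genes and -0.033 for the TCA genes, with 1 gene higher and 1 lower by 0.32 or more. With the suffixes x, s and a left out, 22 genes had a value, 1 of them lower by 0.32 or more, and medians were -0.18 for transporters, -0.064 for pyruvate dehydrogenase, -0.26 for TCA genes, -0.20 for regulators and -0.0093 for hypoxia targets, while Rbks turned to -0.064. The dimmest probe set gave medians of -0.0060 over the 35 genes, 0.30 for transporters, -0.066 for pentose phosphate genes, 0.030 for other glycolysis, -0.041 for other pyruvate entry, -0.048 for other TCA genes and -0.026 for regulators. It gave 4 genes higher by 0.32 or more, with Hk3 at 0.21, Pdp1 at -0.36 and Rbks at -0.064. Why these moved was not tested, beyond the smaller number of genes measured with the higher floor or without those suffixes. No paired analysis was possible because each group has 1 array. Dim genes such as Idh1 and Me1 lie nearest the floor, where signal over background limits what can be read.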

Other observations

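Probe sets annotated to several genes were kept out of the comparison. Of the 4 that list a gene of these pathways, 3 name Gapdh with its pseudogenes, at signals of 4594 and 4799, 184.1 and 222.7, and 70.3 and 70.0 in control and exposed cells. The other names Hk1 beside the ribosomal protein gene Rpl17 and its pseudogenes, at 4622 and 4509.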
